A study of Mus musculus with 90 samples.

Results

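The transition from the unfertilized MII oocyte to the 2-cell (2c) embryo was followed in wildtype (WT) CD-1 mice by RNA sequencing of single oocytes and single embryos. The libraries were chosen by their labels alone, as WT genotype at the MII or 2c stage, and libraries whose median gene had less than 1 CPM were then left out. This left 27 of the 90 libraries of the series, comprising 16 of 16 WT MII oocytes and 11 of 14 WT 2c embryos. The females carried WT alleles of Plag1, the zinc finger gene that the study knocked out in its other animals. All were superovulated with pregnant mare serum and human chorionic gonadotropin (hCG). The oocytes came from unmated females, were taken 21 to 23 h after hCG and were not cultured. The 2c embryos came from WT females mated with WT studs and were cultured in KSOM medium until 45 to 47 h post fertilization. Stage, fertilization and culture therefore changed together and cannot be told apart. Collection took place on 3 occasions, and neither the occasion nor the donor female is named for each library, so the p-values measure the spread between single oocytes and embryos. The libraries were made in 2 pools, here called plate A and plate B, and both stages were present in both plates (8 oocytes and 4 embryos in plate A, 8 oocytes and 7 embryos in plate B).

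An MII oocyte is transcriptionally silent and lives on RNA that was stored during its growth. Many of those transcripts carry short poly(A) tails and are translated only when the tail is extended during maturation, and others are bound by masking proteins. After fertilization the stored RNA is destroyed, first by maternal deadenylases and later with the help of newly made factors, while the embryonic genome is switched on. In the mouse the major wave of this zygotic genome activation falls at the 2-cell stage, and it includes a brief burst of genes that are hardly used at any other time. Reverse transcription was primed here with oligo(dT), so a count stands for a polyadenylated molecule. A longer tail on the same molecule and a larger number of molecules cannot be told apart in these counts. The values are per whole oocyte or whole embryo and not per cell. Because reads mark the 5′ end and were counted once per molecular identifier, the levels of different genes are not scaled by transcript length.

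The polyadenylated RNA of the oocyte fell to a fraction of its amount by the 2c stage when it was measured against the spike-in RNA added to each library. Gene counts ranged from 222357 to 2502421 per MII oocyte (median 395023) and from 116914 to 194287 per 2c embryo (median 148473), whereas the spike-in counts covered similar ranges, 8243 to 11998 and 8348 to 11411. The log2 ratio of gene to spike-in counts was 5.59 ± 0.88 (SD, n = 16) in oocytes and 3.98 ± 0.21 (SD, n = 11) in 2c embryos. The difference of -1.61 (3.05-fold) had p = 2e-05 in a two-sided permutation test, the smallest p that 100000 resamples can give. Within plate A the difference was -2.10 (4.29-fold, exact permutation p = 0.00404), and within plate B it was -1.13 (2.19-fold, exact permutation p = 0.000311), each the smallest p its numbers allow. The oocytes of both plates differed from each other, at 4.34 to 7.72 (median 6.17) in plate A and 4.75 to 5.75 (median 5.00) in plate B (difference 0.906, exact permutation p = 0.0319), while for 2c embryos the plates differed by -0.063 (exact permutation p = 0.691). The WT oocytes were in row A of plate A and in row B of plate B, with the KO oocytes in the other row, so that plate and row cannot be told apart. The oocyte in well A5 had the highest gene count of its plate in both plates (2502421 in plate A, WT, and 1772844 in plate B, KO), and without the WT one the fall between stages was -1.47. In the full libraries 8398 to 13760 genes had a count per oocyte and 8593 to 10304 per 2c embryo, at unequal depths. Drawing each library down to an equal depth removes the difference in amount. It then compares how the counts were spread over genes. At an equal depth of 110000 counts, 7173 to 8613 genes were detected per oocyte (7701 ± 367, SD) and 8345 to 9322 per 2c embryo (8852 ± 316, SD), a gain of 1152 genes (permutation p = 2e-05) that was seen in plate A (907, exact permutation p = 0.00808) and plate B (1362, exact permutation p = 0.000311). No library was a copy of another of its group.

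**Figure D1:**
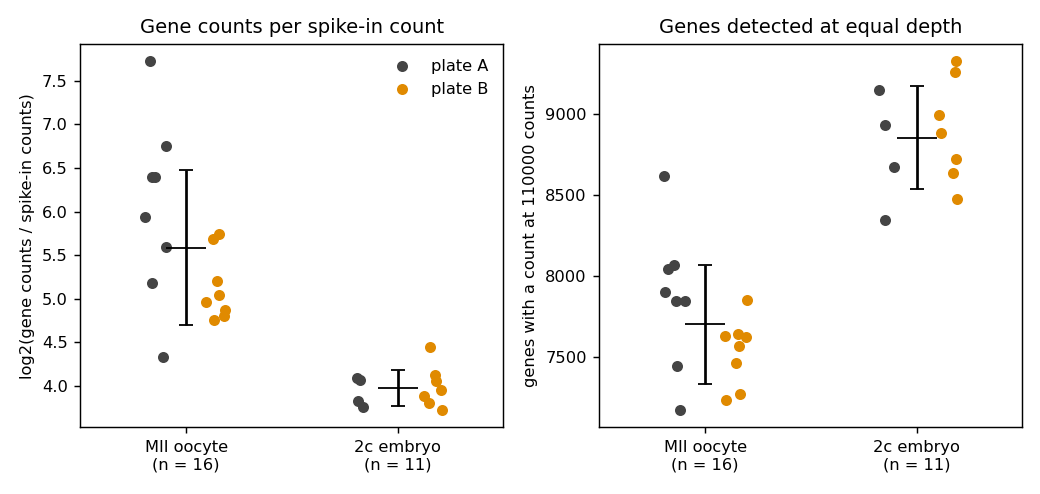
Each point is 1 WT library, MII oocytes and 2c embryos, drawn separately for plates A and B, with the log2 ratio of gene to spike-in counts in the left panel, the number of genes detected at 110000 counts in the right panel, and the mean and SD of each stage as bars. The 2c embryos lie between 3.73 and 4.45 for the ratio, and the oocytes of plate A spread more widely (4.34 to 7.72) than those of plate B (4.75 to 5.75).

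A pair of views of each gene follows from this fall. Scaled to the spike-in RNA, a value is an amount per oocyte or embryo, given below as counts per 10000 spike-in counts. Scaled by TMM factors, which equate the bulk of the genes between libraries, a value is a level relative to that bulk. It is given as CPM, the counts per 1e6 counts of the TMM-adjusted library. A change "in share" below refers to this relative level. Percentages of gene counts are taken from unadjusted counts and can move differently. The median log2 fold change (2c over MII) over 16511 tested genes was -1.46 on the spike-in scale and -0.03 by TMM, so a gene at -1.46 on the first scale merely followed the bulk. On the spike-in scale 8474 genes were lower at 2c (51.3% of those tested) and 2326 were higher (14.1%), with edgeR (quasi-likelihood, adjusted p below 0.05). By TMM 3814 genes were lower (23.1%) and 4540 were higher (27.5%). Each of the 3814 genes lower by TMM was also lower on the spike-in scale, and each of the 2326 genes higher on the spike-in scale was also higher by TMM. A further 4591 genes were lower in amount but not in share, 2145 were higher in share but not in amount, and 69 were lower in amount and higher in share. The size of the fall depended on the plate, since the median spike-in scaled change was -2.17 in plate A and -0.67 in plate B (TMM -0.33 and 0.09). The spike-in scaled values of the 2c embryos all lay below those of the 16 oocytes for 821 genes (4.97%) and all above them for 268 genes (1.62%). The fall was deeper for genes abundant in oocytes. For the 1651 tested genes with the highest oocyte means (107 to 12472 CPM) the medians were -2.98 and -1.30. By TMM 1131 of them were lower and 128 higher. The same oocytes set both the level and the change. Calls in the gene lists below are to be read against the shares of all genes, and medians also against these.

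The composition of the libraries changed accordingly. The 3717 genes that were lower under both scalings and had a negative spike-in scaled change in each plate, called cleared here, held 59.2 to 65.0% of the gene counts of an oocyte (median 62.7%) and 16.4 to 26.6% of those of a 2c embryo (median 21.1%). The 1983 genes that were higher under both scalings with a positive change in each plate, called activated, rose from 0.720 to 1.79% (median 1.00%) to 18.1 to 33.3% (median 23.9%). These shares describe the 2 groups and are not a test, because the same libraries chose the genes. Among the cleared genes 1312 had a spike-in scaled log2 fold change of -4 or less, and among the activated genes 822 had one of 3 or more.

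**Figure D2:**
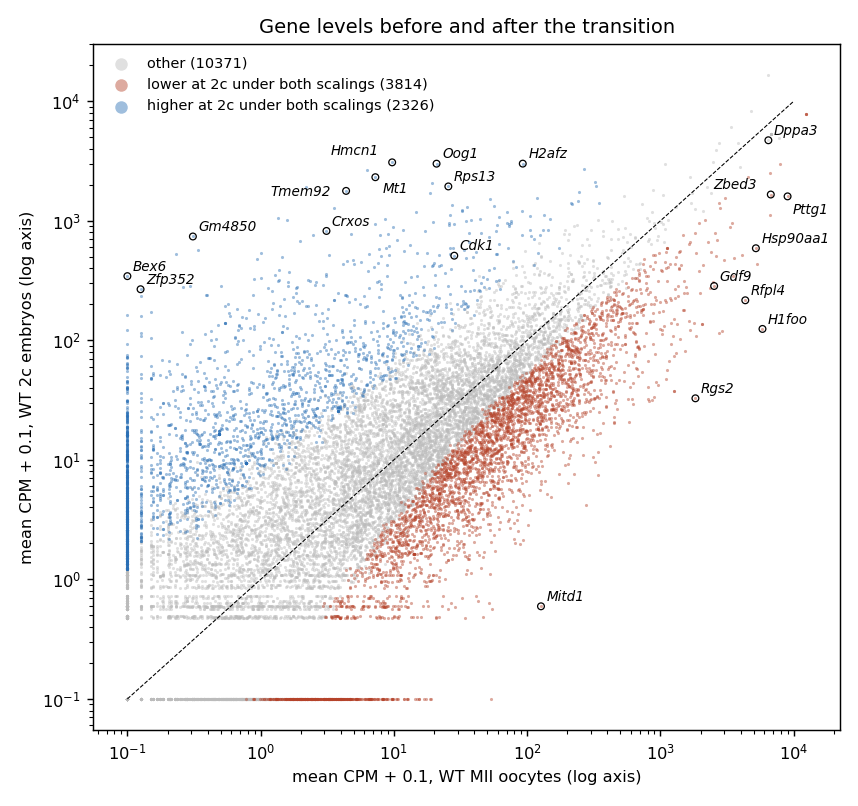
Each point is 1 of the 16511 tested genes, with its mean CPM (0.1 added) in WT MII oocytes on the horizontal and in WT 2c embryos on the vertical log axis. Genes lower (3814, red) and higher (2326, blue) at 2c under both scalings are coloured, the dashed line marks equal levels, and a band of the most abundant oocyte transcripts, H1foo and Rgs2 among them, lies far below it.

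Among the cleared genes with a spike-in scaled log2 fold change of -4 or less, the highest mean CPM in oocytes was that of H1foo (chr6:115894949-115900260 of mm9), which encodes the linker histone of the oocyte. H1foo values were between 129 and 8465 (median 1061) per 10000 spike-in counts in oocytes and between 9.40 and 49.1 (median 21) in 2c embryos. The lowest oocyte lay above the highest embryo, and the log2 fold change was -7.17 ± 0.69 (SE) with adjusted p = 2.85e-15 (TMM -5.47). The oocytes themselves differed by plate, at between 129 and 8465 (median 7177) in plate A and between 178 and 1075 (median 882) in plate B, and the log2 fold change was -8.18 within plate A and -4.96 within plate B. Hsp90aa1, the stress-inducible HSP90 chaperone, lay between 428 and 5674 (median 1983) in oocytes and between 46.4 and 190.5 (median 113) in embryos, again without overlap, with a log2 fold change of -4.58 ± 0.35 and an adjusted p of 3.6e-20 (TMM -3.06). Rfpl4, an oocyte RING finger-like protein gene, lay between 860.2 and 3763 (median 1950) in oocytes and between 16.7 and 119.8 (median 34.8) in embryos, without overlap (-5.51 ± 0.50, adjusted p = 1.28e-16, TMM -4.22). Slbp encodes the protein that binds the stem-loop of replication-dependent histone mRNAs. Its values were between 618 and 3275 (median 1636) in oocytes and between 70.2 and 150.0 (median 89.7) in embryos, and all embryos were below all oocytes (-4.17 ± 0.33, adjusted p = 3.46e-19, TMM -2.79).

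Several of these abundant cleared genes encode enzymes. Ldhb, the heart-type lactate dehydrogenase subunit, lay between 91.9 and 3316 (median 1512) in oocytes and between 35.3 and 102 (median 63.3) in 2c embryos, where the lowest oocyte fell within the embryo range (-4.57 ± 0.43, adjusted p = 6.14e-16). Bpgm, bisphosphoglycerate mutase, lay between 510.3 and 4289 (median 1185) and between 38.2 and 214 (median 72.9) without overlap (-4.18 ± 0.45, adjusted p = 2.3e-13). Akr1b3, aldose reductase, had a log2 fold change of -5.35 and lay between 287 and 4520 (median 719) in oocytes and between 10.3 and 50.7 (median 23.5) in embryos. The predicted gene Gm6644 overlaps Akr1b3 and had nearly the same counts (17764 against 17783 over the oocytes), so the 2 rows are not separate observations. Slc45a3, a solute carrier gene, lay between 192 and 10152 (median 594) and between 23.7 and 125 (median 39.5) without overlap, and its log2 fold change was -6.03 in plate A and -2.87 in plate B.

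The abundant cleared genes also included Gdf9, which is described with the secreted factors. Oas1d, an oocyte member of the oligoadenylate synthetase family, lay between 236 and 4546 (median 1326) in oocytes and between 10.8 and 61.1 (median 19.6) in embryos (-6.08 ± 0.52, adjusted p = 1.37e-17). The spike-in scaled values of E330021D16Rik ranged between 739.6 and 2343 (median 1263) and between 12.4 and 35.8 (median 22.8) (-5.91 ± 0.43), and those of D6Ertd527e between 554 and 7611 (median 2067) and between 23.3 and 200.05 (median 56.4) (-4.87 ± 0.57). In these 3 genes no embryo reached the lowest oocyte. Zfp57, which protects methylated imprints, had a log2 fold change of -4.44 ± 0.54 and lay between 100.2 and 3508 (median 739.8) in oocytes and between 23.3 and 158 (median 50.5) in embryos, where the stages overlapped. In all, 11 of the 14 genes showed no overlap between the stages, against 821 of all tested genes (4.97%) with all embryos below all oocytes. All 14 were among genes selected for their fall, so their folds and lack of overlap are a description.

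**Figure D3:**
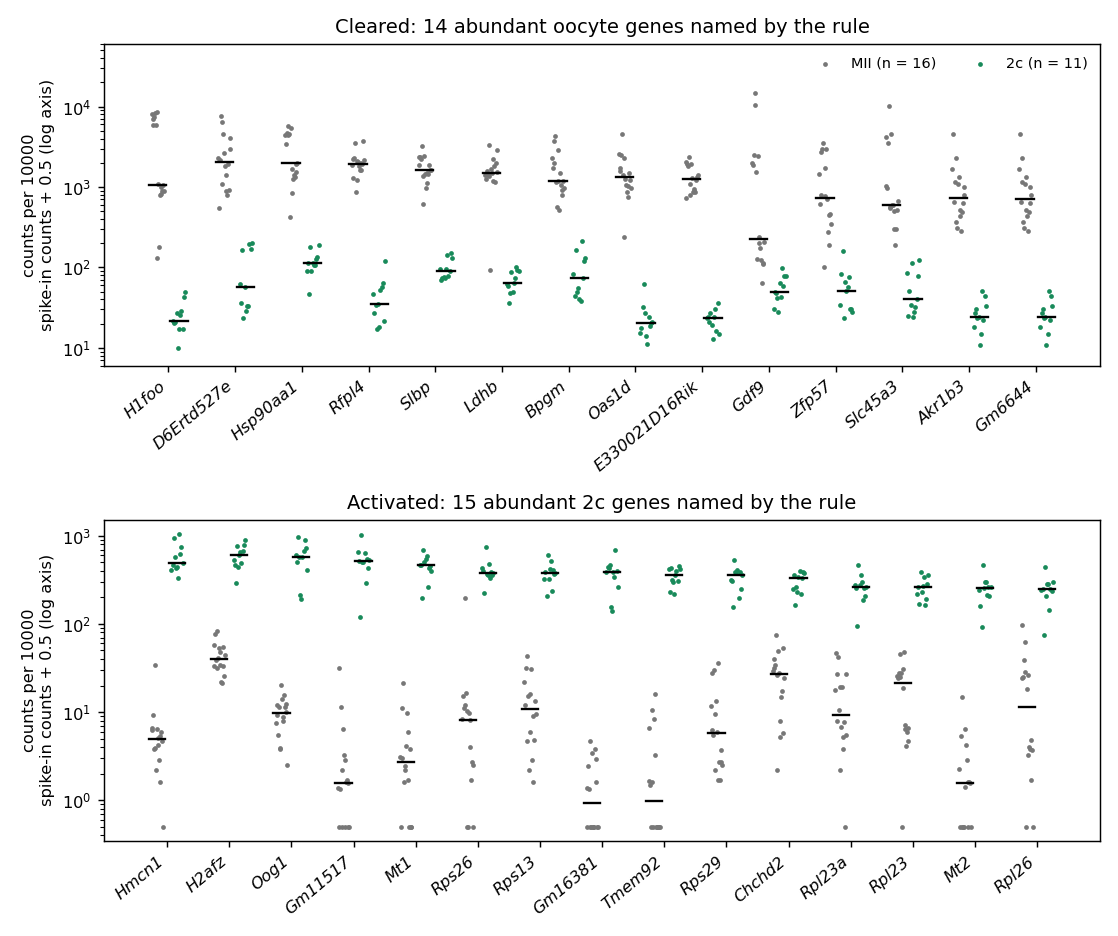
Spike-in scaled values (counts per 10000 spike-in counts with 0.5 added, log axis) of the 14 cleared genes (upper panel) and the 15 activated genes (lower panel) named by abundance, with 1 point per WT library, MII oocytes in grey, 2c embryos in green and medians as bars. For H1foo the oocytes lie between 129 and 8465 (median 1061) and the embryos between 9.40 and 49.1 (median 21), whereas for Hmcn1 the order is reversed.

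Secreted oocyte factors and the zona pellucida genes fell together. Of the 11 genes on this list, 10 were lower on the spike-in scale and 10 were lower by TMM, and none was higher (median log2 fold change -4.10 and -2.27, against -1.46 and -0.03 over all genes). Among all tested genes 51.3% were lower and 14.1% higher on the spike-in scale, and 23.1% and 27.5% by TMM. Zp1, Zp2 and Zp3 encode the coat that sperm must cross. Zp1 lay between 24.3 and 3979 (median 133) in oocytes and between 4.78 and 38.6 (median 15.6) in embryos (-5.09 ± 0.73, adjusted p = 5.16e-09, TMM -2.82). Zp2 and Zp3 fell by less, with log2 fold changes of -2.68 ± 0.44 and -3.43 ± 0.59 (TMM -1.17 and -1.39, adjusted p = 0.00217 and 0.00412). Gdf9 and Bmp15 are growth factors that the oocyte sends to its cumulus cells. Gdf9 lay between 64.3 and 14828 (median 222) in oocytes and between 27.3 and 97 (median 49.2) in embryos (-5.37 ± 0.75, adjusted p = 1.97e-09), but the fall came mostly from plate A, where oocytes lay between 126 and 14828 (median 2188), while those of plate B lay between 64.3 and 240.4 (median 148). The log2 fold change of Gdf9 was -6.73 in plate A, -1.28 in plate B and -4.73 without the A5 oocyte. Bmp15, whose counting region overlaps several gene models on the same strand, lay between 235 and 7226 (median 476) and between 26.7 and 137 (median 64.7) without overlap (-4.10 ± 0.61, TMM -2.27). Oosp1, a secreted oocyte protein gene, had the highest mean CPM of the list and fell by less (-2.49 ± 0.38, TMM -0.89). Astl, the ovastacin protease that cleaves ZP2 after fertilization, lay between 0.93 and 941 (median 25.6) in oocytes and between 0 and 7.89 (median 2.31) in embryos (-5.48 ± 0.73, adjusted p = 6.98e-10).

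The transcription factors that build the oocyte mostly fell as well. Among 11 tested genes of 12 listed, 9 were lower on the spike-in scale and 7 by TMM, and 1 was higher by TMM (medians -3.37 and -1.92). Among all tested genes 51.3% were lower on the spike-in scale, and by TMM 23.1% were lower and 27.5% higher. The genes with the highest oocyte means had medians of -2.98 and -1.30. Nobox, a homeobox factor needed for follicle growth, lay between 43.4 and 3724 (median 557) in oocytes and between 3.33 and 28.3 (median 15.8) in 2c embryos without overlap (-5.84 ± 0.83, adjusted p = 4.49e-09, TMM -4.0). The LIM homeobox gene Lhx8 lay between 6.76 and 623 (median 27.8) and between 0 and 5.77 (median 2.74), also without overlap (-4.72 ± 0.77). Obox5, an oocyte homeobox gene, had a log2 fold change of -2.77 ± 0.40 (TMM -1.28). Foxo3, which keeps primordial follicles dormant, was decided by 1 oocyte, with a value of 3240 in the A5 oocyte and at most 231 in the others. Its log2 fold change was -3.57 with that oocyte and -1.49 without it (adjusted p = 2.33e-05 and 0.0165), and by TMM it was -0.84 (adjusted p = 0.144). Taf4b, a gonadal TFIID subunit, was the member that was higher by TMM (2.62, adjusted p = 8.67e-05), while its change in amount was 1.05 (adjusted p = 0.139).

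Genes of meiotic arrest and the cell cycle included falls and rises. Of 29 tested, 23 were lower and 3 were higher on the spike-in scale, and 9 were lower and 6 higher by TMM (medians -1.95 and -0.18). Over all genes 51.3% were lower and 14.1% higher on the spike-in scale, and 23.1% and 27.5% by TMM. Pttg1, securin, was among the most abundant oocyte mRNAs, between 2768 and 6095 (median 3911) in oocytes against between 138 and 468 (median 308) in embryos, and no embryo came near the oocyte range (-3.71 ± 0.33, adjusted p = 5.95e-17, TMM -2.41). Mos, the kinase that holds the egg at metaphase II, lay between 0 and 650.5 (median 14.5) in oocytes and between 0 and 6.06 (median 0.876) in embryos (-6.13 ± 0.93, adjusted p = 2.17e-08). The fall of Mos was -7.07 in plate A and -1.40 in plate B. Ccno, a cyclin of the oocyte, fell by a log2 fold change of -5.87 (-6.88 and -1.89 in plates A and B). Bub1b, the spindle checkpoint kinase BUBR1, had one of -5.30 over both plates and of -0.30 in plate B, where its TMM change was 0.63, so its fall rested on plate A. Against this, Cdk1, the mitotic kinase, lay between 0 and 116 (median 3.8) in oocytes and between 49.5 and 158 (median 107) in embryos, with overlap (2.63 ± 0.54, adjusted p = 1.72e-05, TMM 4.19). Cdc25c, the phosphatase that activates it, rose by 2.31 ± 0.47 (adjusted p = 1.4e-05). Ccnb1, cyclin B1, was lower in amount (-0.89, adjusted p = 0.0148) and did not pass the test in share (0.43, adjusted p = 0.228).

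The mRNAs of proteins that keep maternal mRNA dormant were among those that fell. Of 18 tested storage and masking genes, 17 were lower on the spike-in scale and 9 by TMM, and 1 was higher by TMM (medians -3.03 and -1.07). These medians were close to those of the genes with the highest oocyte means (-2.98 and -1.30). Among all tested genes 51.3% were lower on the spike-in scale, and by TMM 23.1% were lower and 27.5% higher. Dazl, an RNA-binding protein of germ cells, lay between 79.3 and 464 (median 202) in oocytes and between 3.33 and 23.1 (median 7.01) in embryos without overlap (-4.68 ± 0.47, adjusted p = 1.98e-14, TMM -3.29). Eif4e1b, an oocyte cap-binding protein, lay between 116 and 3489 (median 567) and between 8.89 and 117 (median 57.4) with overlap (-3.75 ± 0.62, adjusted p = 2.44e-07). Eif4enif1, which keeps eIF4E away from mRNA, changed by -2.98 ± 0.40 (TMM -1.27). Zar1 and Cpeb1, which bind the 3′ ends of dormant mRNAs, had 1522 and 1498 counts over the 16 oocytes and 14 and 19 over the 11 embryos. Their log2 fold changes were -5.88 ± 0.77 and -5.44 ± 0.74 (adjusted p = 3.63e-10 and 1.04e-09).

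Some genes of the machinery that removes maternal mRNA fell themselves. Of 27 tested, 19 were lower and 1 was higher on the spike-in scale, and 12 were lower and 7 higher by TMM (medians -2.87 and -1.25). Genes with the highest oocyte means had similar medians (-2.98 and -1.30). Over all genes 27.5% were higher by TMM. Btg4 brings the CCR4-NOT deadenylase to maternal mRNA. It lay between 805 and 6495 (median 1411) in oocytes and between 62.9 and 401 (median 138) in embryos without overlap (-3.31 ± 0.41, adjusted p = 4.06e-11, TMM -1.82). Pabpn1l, a poly(A)-binding adaptor of maternal decay, lay between 8.30 and 635 (median 131) and between 0 and 5.05 (median 1.88) without overlap (-6.43 ± 0.75, adjusted p = 6.74e-12). Of the CCR4-NOT subunits, the catalytic Cnot7 changed by -3.20 ± 0.42, the scaffold member Cnot3 by -4.33 ± 0.54 and the ubiquitin ligase Cnot4 by -4.72 ± 0.44, each without overlap between stages. The decapping activator Dcp1a lay between 142 and 4626 (median 824) and between 7.78 and 49.1 (median 28.3) without overlap (-5.24 ± 0.67, adjusted p = 1.29e-10). The exception on the spike-in scale was Ythdf2, a reader of m6A-marked mRNA, which lay between 0 and 81.8 (median 9.40) in oocytes and between 15.5 and 62.3 (median 34.8) in embryos (1.34 ± 0.45, adjusted p = 0.00796, TMM 3.18).

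The subcortical maternal complex, a protein lattice under the oocyte membrane that the early embryo inherits, was encoded by genes whose mRNA counts fell. Each of its 8 genes was lower on the spike-in scale and had a negative change in each plate, and 7 were lower by TMM (medians -4.13 and -2.62). Among all tested genes 51.3% were lower on the spike-in scale and 23.1% by TMM. The genes with the highest oocyte means had medians of -2.98 and -1.30. Padi6, a peptidylarginine deiminase of oocyte lattices, lay between 104 and 4207 (median 432) in oocytes and between 11.9 and 41.9 (median 18.2) in embryos without overlap (-5.28 ± 0.53, adjusted p = 9.75e-15). Nlrp5 (MATER) lay between 29.1 and 2440 (median 128) and between 2.06 and 28.3 (median 7.78) without overlap (-4.74 ± 0.77, adjusted p = 1.4e-07). Tle6 and Ooep had log2 fold changes of -5.39 ± 0.80 and -4.08 ± 0.55, with overlapping stages. Within plates A and B those of Tle6 were -5.94 and -2.67 and those of Ooep -5.02 and -1.49 (TMM -3.19 and -0.50). Zbed3 had the highest mean CPM of the complex, 6730 ± 3375 (SD) in oocytes and 1658 ± 1189 in embryos, and its counting region also contains a small nucleolar RNA gene (-3.58 ± 0.59, TMM -1.91).

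Oocyte families that occur in many copies, the oogenesins, the Nlrp4 and Nlrp9 genes and the Fbxw cluster, went the same way with 1 exception. Of 27 tested members, 26 were lower and 1 was higher on the spike-in scale, and 25 were lower and 1 higher by TMM (medians -4.23 and -2.51), although near-identical copies can share reads. Among all tested genes 51.3% were lower and 14.1% higher on the spike-in scale, and 23.1% and 27.5% by TMM. Nlrp9b lay between 4.18 and 574 (median 29.6) in oocytes and between 0 and 2.39 (median 0) in embryos without overlap (-6.88 ± 0.81, adjusted p = 1e-11), and Oog4 lay between 1.00 and 180.4 (median 22.7) and between 0 and 2.02 (median 0) with overlap (-6.56 ± 0.77, adjusted p = 7.14e-12). Oog3 stood nearly still in share, 2492 ± 927 CPM (SD) in oocytes and 3118 ± 1372 in embryos (TMM 0.42, adjusted p = 0.151), and was lower in amount (-1.01, adjusted p = 0.00282). The exception was Oog1, described with the activated genes.

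Among genes of fertilization and egg activation, 10 of 13 tested were lower and 2 higher on the spike-in scale, and 7 lower and 3 higher by TMM (medians -3.06 and -1.21). The shares over all genes were 51.3% and 14.1% on the spike-in scale and 23.1% and 27.5% by TMM. Izumo1r (JUNO), the egg receptor for sperm IZUMO1, lay between 51.8 and 3730 (median 563) in oocytes and between 2.06 and 53.5 (median 12.2) in embryos (-5.41 ± 0.91, adjusted p = 3.1e-07, TMM -3.66). Bcl2l10, a BCL2 family member of oocytes, lay between 1801 and 9137 (median 2699) and between 57.7 and 469 (median 167) without overlap (-3.99 ± 0.47, adjusted p = 1.16e-11). Rgs2, a regulator of G-protein signalling, had one of the largest falls of the series' abundant genes, between 220.5 and 2189 (median 745) in oocytes against between 1.19 and 17.2 (median 5.39) in embryos (-7.26 ± 0.51, adjusted p = 2.24e-22, TMM -5.72). The 2 genes that were higher in amount were Cd9, a tetraspanin of the egg membrane (1.69 ± 0.38, adjusted p = 8.55e-05), and the cation channel Trpm7 (1.81 ± 0.56, adjusted p = 0.0036). Their oocyte levels were low, 14.6 ± 12.9 and 3.48 ± 4.53 CPM (SD).

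Maternal chromatin factors mostly fell. Of 25 tested, 22 were lower and 2 higher on the spike-in scale, and 12 were lower and 4 higher by TMM (medians -2.51 and -0.88). Over all genes 51.3% were lower and 14.1% higher on the spike-in scale, and 23.1% and 27.5% by TMM. The medians of the genes with the highest oocyte means were -2.98 and -1.30. The maintenance DNA methyltransferase Dnmt1 lay between 15 and 3319 (median 249) in oocytes and between 1.19 and 36.1 (median 16.7) in embryos (-4.82 ± 0.61, adjusted p = 1.03e-10, TMM -2.82), and its partner Uhrf1 changed by -4.72 ± 0.61 (TMM -2.45). Tet3, the 5-methylcytosine oxidase of the zygote, changed by -4.24 ± 0.67 (TMM -2.14), and Npm2, the histone chaperone nucleoplasmin 2, by -3.21 ± 0.37 (TMM -1.69). Dppa3 (STELLA), which guards maternal methylation, was retained better, between 929.5 and 3841 (median 3104) in oocytes and between 565 and 1197 (median 974) in embryos. Its fall of -1.67 ± 0.24 in amount (adjusted p = 7.27e-09) was near the median of all genes, and its TMM change was -0.37 (adjusted p = 0.18). The 2 genes that were higher in amount were the H3K4 demethylase Kdm5b (2.12 ± 0.38, adjusted p = 1.25e-06) and the histone H3.3 chaperone Hira (1.20 ± 0.52, adjusted p = 0.0374).

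By size rather than abundance, the deepest falls were those of Mitd1, C920025E04Rik, Nos1ap, Rgs2 and Fam90a1a. Mitd1, which acts at the midbody in abscission, had 1001 counts over the 16 oocytes and 1 count over the 11 embryos, a ratio of 648 per spike-in count (95% counting interval 116 to 25612). Nos1ap, an adaptor of neuronal nitric oxide synthase, had 616 counts in 12 of 16 oocytes and 1 count in the embryos, a ratio of 399 (71.3 to 15771), and its oocyte values were between 10.1 and 193 (median 39.2) in plate A and between 0 and 5.45 (median 0.607) in plate B. C920025E04Rik, a gene in the major histocompatibility region, had 581 counts in 12 oocytes and 0 in the embryos, at least 125-fold higher in oocytes against a floor of 3 counts over the embryos. Most of its counts came from plate A, where the oocytes lay between 9.19 and 93.3 (median 69.1), while those of plate B lay between 0 and 20.1 (median 1.82). Fam90a1a lay between 53.3 and 324 (median 127) in oocytes and between 0 and 4.78 (median 0) in embryos (-7.25 ± 0.60, adjusted p = 1.79e-18).

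The activated genes with the highest 2c levels are given first. Hmcn1, the extracellular matrix protein hemicentin 1, had between 0 and 33.7 (median 4.38) per 10000 spike-in counts in oocytes and between 333 and 1044 (median 496) in embryos, a wide gap (6.59 ± 0.42, adjusted p = 1.49e-24, TMM 8.38). H2afz, the histone variant H2A.Z, lay between 20.7 and 82.6 (median 39.2) in oocytes and between 294 and 899.6 (median 605) in embryos without overlap (3.79 ± 0.26, adjusted p = 3.35e-23, TMM 5.11). The predicted gene Gm11517 lay between 0 and 31.3 (median 1.07) and between 118 and 1027 (median 515) (7.06 ± 0.61, adjusted p = 1.5e-17); its locus overlaps Cbx1 on the opposite strand. Chchd2, a mitochondrial coiled-coil-helix protein, lay between 1.67 and 75 (median 26.6) and between 165 and 400.1 (median 332) (3.46 ± 0.33, adjusted p = 8.39e-16). Of the 15 activated genes named by abundance, 14 showed no overlap between stages. They were selected for their rise in these libraries, so this is a description. Over all tested genes 268 (1.62%) had all embryos above all oocytes.

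Mt1 and Mt2 encode metallothioneins, small proteins that bind zinc and copper, and lie next to each other, Mt1 at chr8:96702989-96704227 and Mt2 at chr8:96696518-96697467 of mm9. Mt1 lay between 0 and 21.1 (median 2.23) in oocytes and between 199 and 698 (median 461) in embryos (6.74 ± 0.48, adjusted p = 5.12e-22, TMM 8.39). Mt2 lay between 0 and 14.3 (median 1.07) and between 92.9 and 469 (median 255) (6.64 ± 0.48, adjusted p = 1.84e-21, TMM 8.40). The highest Mt2 value among oocytes was that of the A5 oocyte, with at most 5.90 in the others, and without it the log2 fold change was 7.25. No embryo overlapped an oocyte in either gene. The window from 250 bases before to 50 after the annotated Mt1 start (chr8:96702739-96703038, plus strand) is shown because metallothionein promoters are the classical home of metal response elements, and capitals mark the element's core, TGCACNC or TGCGCNC on either strand, which was searched for after the rise of both genes had been seen.
Mt1 start region: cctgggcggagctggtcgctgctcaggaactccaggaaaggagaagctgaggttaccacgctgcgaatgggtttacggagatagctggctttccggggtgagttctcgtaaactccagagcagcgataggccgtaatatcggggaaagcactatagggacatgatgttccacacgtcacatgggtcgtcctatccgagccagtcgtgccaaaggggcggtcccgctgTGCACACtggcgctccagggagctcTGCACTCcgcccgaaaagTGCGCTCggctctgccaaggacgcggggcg
The window held 3 cores. The core with A occurred in 13.4% and the core with G in 24.7% of 16072 windows of tested genes, so a match alone is common. Sequences are from the mm9 genome.

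Genes known for a burst at the 2-cell stage rose as a group. Of 70 listed genes 55 were among the counted genes and 47 were tested. Of the 47 tested members, 36 were higher and 4 were lower on the spike-in scale, and 42 were higher and 2 lower by TMM (medians 3.13 and 4.51). Among all tested genes 14.1% were higher and 51.3% lower on the spike-in scale, and 27.5% and 23.1% by TMM. This list was drawn up from what is known of the stage, and many of its genes are near-identical copies that can share reads. Its members Gm4340 and Gm6763 have the same annotated start, so they are not separate observations. Zfp352, a zinc finger gene, had 1 count over the 16 oocytes and between 14.4 and 135 (median 35.7) per 10000 spike-in counts in embryos, a ratio of 827 (95% counting interval 148 to 32713). Tmem92, a transmembrane protein gene, lay between 0 and 15.4 (median 0.488) in oocytes and between 217 and 459 (median 363) in embryos without overlap (6.84 ± 0.55, adjusted p = 4.29e-19, TMM 8.52). Obox6 and Obox3 are homeobox genes of the embryo. Obox6 lay between 0 and 11 (median 0) and between 59.6 and 196 (median 90.3) (6.47 ± 0.51), and Obox3 lay between 0 and 4.65 (median 0) and between 17.5 and 142 (median 34.7) (5.63 ± 0.59), both without overlap. Tdpoz5, of a family with TRAF and POZ domains, rose by 5.86 ± 0.62 (adjusted p = 9.11e-14).

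A cluster on chromosome 12 held several of these genes. Oog1 (chr12:88943615-89199120), Gm16381 (chr12:88985075-89085164), BB287469 and Gm2016 lie within or beside each other's counting regions, and the Eif1a-like copies among them cannot be told apart with certainty. Oog1 lay between 2.01 and 19.7 (median 9.15) in oocytes and between 189.7 and 978 (median 576.8) in embryos (5.94 ± 0.39, adjusted p = 5.28e-24, TMM 7.32). Gm16381 had 18 counts over the oocytes and lay between 140.2 and 691 (median 392) in embryos (8.24 ± 0.53, adjusted p = 3.46e-24, TMM 9.90), BB287469 had 9 counts over the oocytes and lay between 40.2 and 405 (median 159) in embryos (8.22 ± 0.56), and Gm2016 rose by 7.41 ± 0.66. None of the 4 overlapped between the stages.

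The start regions of 3 activated genes are shown because their windows hold short motifs that recur in the group. Capitals mark TAATCC on either strand (GGATTA when read on the other), the core bound by paired-like homeodomain proteins such as the OBOX family, and GATTNAATC on either strand, the core of the site of the 2-cell factor DUX. The windows are chr4:89885261-89885560 (plus strand), chr12:89085115-89085414 (minus) and chr4:101516578-101516877 (minus).
Zfp352 start region: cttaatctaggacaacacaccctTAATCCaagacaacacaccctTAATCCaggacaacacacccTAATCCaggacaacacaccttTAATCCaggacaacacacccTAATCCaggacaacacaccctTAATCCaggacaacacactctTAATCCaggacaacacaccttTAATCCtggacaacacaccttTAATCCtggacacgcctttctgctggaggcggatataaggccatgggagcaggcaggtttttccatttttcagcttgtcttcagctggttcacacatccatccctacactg
Gm16381 start region: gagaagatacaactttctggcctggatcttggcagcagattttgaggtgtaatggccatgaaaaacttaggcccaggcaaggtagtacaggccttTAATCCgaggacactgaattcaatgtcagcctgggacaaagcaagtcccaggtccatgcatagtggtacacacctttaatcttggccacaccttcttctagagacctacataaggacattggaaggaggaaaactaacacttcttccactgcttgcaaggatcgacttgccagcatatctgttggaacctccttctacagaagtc
B020004J07Rik start region: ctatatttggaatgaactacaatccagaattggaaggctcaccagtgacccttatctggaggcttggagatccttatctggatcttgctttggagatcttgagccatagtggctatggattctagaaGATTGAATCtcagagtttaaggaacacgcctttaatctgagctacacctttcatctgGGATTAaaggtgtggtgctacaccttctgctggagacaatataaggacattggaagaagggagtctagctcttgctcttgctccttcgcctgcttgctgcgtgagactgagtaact
In Zfp352 the motif was repeated 9 times in a tandem array, and the copy nearest the start began 61 bases before it, whereas Gm16381 had 1 copy and B020004J07Rik had 1 copy and 1 DUX core. B020004J07Rik had 0 counts in the oocytes and 80 in the embryos, at least 41.2-fold higher in embryos. TAATCC occurred in 6.55% of the 16072 windows, in 5.80% of the windows of cleared genes, in 8.57% of those of activated genes, in 11.7% of those of activated genes with a log2 fold change of 3 or more and in 39.1% of the 46 windows of the 2-cell list. The DUX core occurred in 0.230%, 0.166%, 0.363%, 0.496% and 13% in the same order. Copies share their promoter sequence, so the windows of the 2-cell list are not independent of each other. Gm4340 and Gm6763 even have the identical window, which holds both motifs and was counted for each of them. The promoters of that list were also poor in CpG, with a median observed over expected ratio of 0.156 against 0.710 for all windows and a median GC content of 45.7% against 59.3%. The CCAAT box was found in 67.4% of them and in 38.4% of all windows.

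Some well-known 2-cell genes had few counts in these libraries. Neither the time of collection nor a loss of reads among near-identical copies was tested as a reason. Zscan4c and Zscan4d, the best known markers of the burst, had 33 and 29 counts over the 11 embryos and 20 and 5 over the 16 oocytes. Zscan4d passed the test (2.66 ± 0.62, adjusted p = 0.000171), and Zscan4c did so by TMM (2.95, adjusted p = 0.000336) but not in amount (1.32, adjusted p = 0.109). Usp17la, a deubiquitinase gene, rose by 2.78 ± 0.66 (adjusted p = 0.000186) at 24.3 ± 28.9 CPM (SD) in embryos. Dux itself had 7 counts over the oocytes and 6 over the embryos, and its spike-in scaled log2 fold change of 0.39 had adjusted p = 0.675. By TMM Dux was higher (1.78, adjusted p = 0.0418), with opposite signs in plate A (-1.48) and plate B (1.91). Tcstv1, Tcstv3 and Zscan4f had 0 counts in the 27 libraries. The 4 listed genes that were lower in amount included Arg2, a mitochondrial arginase (-3.60, adjusted p = 1.39e-05), Pramef12 (-3.27, adjusted p = 4.42e-06) and D5Ertd577e (-5.0, adjusted p = 6.07e-06). D5Ertd577e changed sign in plate B (1.18). Sp110, an abundant member, did not pass in amount (-0.64, adjusted p = 0.214) and was higher by TMM (0.95, adjusted p = 0.0223).

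Transcription factors of the cleavage-stage embryo included genes that fell and genes that rose. Whether a transcript was inherited or newly made was not measured. Of 36 tested, 12 were lower and 14 higher on the spike-in scale, and 7 were lower and 21 higher by TMM (medians -0.10 and 1.48). Shares over all genes were 51.3% and 14.1% on the spike-in scale and 23.1% and 27.5% by TMM. Crxos, a homeobox factor, lay between 0 and 20.2 (median 1.02) in oocytes and between 75.4 and 225 (median 181) in embryos without overlap (5.92 ± 0.53, adjusted p = 7.34e-17, TMM 7.81), and without the A5 oocyte its log2 fold change was 6.83. Dppa4, a chromatin-associated pluripotency factor, lay between 0 and 16.9 (median 0.545) and between 26.3 and 137 (median 69.2) without overlap (4.79 ± 0.44, adjusted p = 2.68e-16). Tead4, the trophectoderm factor, had 4 counts over the oocytes and 88 over the embryos (4.49 ± 0.60, adjusted p = 6.64e-10), and the ETS factor Gabpa had 4 and 147 (5.25 ± 0.56, adjusted p = 1.34e-13). Klf5, Klf9 and Prdm14 rose from 5, 2 and 2 counts over the oocytes to 56, 65 and 27 over the embryos (adjusted p = 1.26e-08, 8.36e-10 and 6.77e-05), and the retinoic acid receptor Rarg rose by 3.47 ± 0.59. Among those that fell, Pou5f1 (OCT4) lay between 86.1 and 845 (median 261) in oocytes and between 14.3 and 119.8 (median 24.4) in embryos (-3.25 ± 0.47, adjusted p = 5.94e-09, TMM -1.84). Klf17 (-2.50 ± 0.41, TMM -1.35), Gata3 (-4.39 ± 0.59) and Nfya, a subunit of the CCAAT-binding factor NF-Y (-3.09 ± 0.50), fell as well. Gata3 was the one among these 4 with no overlap. Nanog had 4 counts over the oocytes and 2 over the embryos, and a change was not detectable at this depth (adjusted p = 0.813).

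Ribosomal protein genes formed the broadest rise. Of 87 tested genes of the cytosolic ribosome, 73 were higher and 3 lower on the spike-in scale, and 84 were higher and 1 lower by TMM (medians 2.42 and 4.13). For 29 of the 87 all embryos lay above all oocytes. Of all tested genes 14.1% were higher on the spike-in scale, 27.5% were higher by TMM and 1.62% had all embryos above all oocytes. The shares lower were 51.3% and 23.1%. Together the ribosomal protein genes held 0.236 to 1.66% of the gene counts of an oocyte (median 0.466%) and 3.98 to 11.7% of those of a 2c embryo (median 6.08%). Rps13 lay between 1.09 and 43 (median 10.2) in oocytes and between 209 and 607 (median 379) in embryos (4.79 ± 0.36, adjusted p = 1.88e-20, TMM 6.30). Rps29 lay between 1.19 and 35.3 (median 5.22) and between 155 and 536 (median 358) (5.08 ± 0.39, adjusted p = 2.45e-20), and Rps26 lay between 0 and 198 (median 7.70) and between 222 and 746 (median 381) (4.44 ± 0.54, adjusted p = 2.11e-11). In these 3 genes no embryo overlapped an oocyte. The highest Rps26 value among oocytes was that of the A5 oocyte, 198 against at most 15.8 in the others, and without it the log2 fold change was 5.95. Rpl23a, Rpl23 and Rpl26 changed by 4.14 ± 0.55, 3.78 ± 0.38 and 3.54 ± 0.43, and Rpl38 by 4.89 ± 0.49, while Rpl23a and Rpl23 share their rows with small nucleolar RNA genes and Rpl26 with a predicted gene.

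The ribosomal exceptions were few. The 3 genes that were lower in amount were Rps15a (-3.09 ± 0.47, adjusted p = 2.51e-08), Rps27l, a p53-inducible relative of Rps27 (-1.13 ± 0.25, adjusted p = 4.71e-05), and Rpl4 (-0.65 ± 0.30, adjusted p = 0.0474). Only Rps15a among the tested members was also lower by TMM (-1.27), and Rpl4 was higher (0.80). A pyrimidine tract at the start (C followed by at least 4 pyrimidines, beginning within 5 bases of the annotated start) was found in 43.5% of 85 ribosomal protein gene windows and in 19.1% of all windows. Mitochondrial ribosomal protein genes did not share the rise. Of 77 tested, 45 were lower and 11 higher on the spike-in scale, and 26 were lower and 27 higher by TMM (medians -1.61 and 0.11). For all tested genes the shares were 51.3% and 14.1% on the spike-in scale and 23.1% and 27.5% by TMM. Mrps33 changed by -3.16 ± 0.37, Mrpl18 by -2.17 ± 0.36 and Mrpl48 by -1.44 ± 0.28, whereas Mrps30 rose by 3.70 ± 0.61 with no overlap. Mrpl17 was lower overall (-4.31, adjusted p = 1.4e-06), but -2.56 without the A5 oocyte and, by TMM in plate B, 0.60.

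Nucleolar genes of ribosome assembly moved in both directions. Of 75 tested, 29 were lower and 21 higher on the spike-in scale, and 11 were lower and 43 higher by TMM (medians -0.48 and 1.19). All genes together had shares of 51.3% and 14.1% on the spike-in scale and 23.1% and 27.5% by TMM. Nop16 lay between 0 and 15.2 (median 0) in oocytes and between 28.3 and 136 (median 71.9) in embryos, Nhp2, a protein of H/ACA particles, between 0 and 58.2 (median 3.03) and between 60.6 and 181 (median 119.6), and Nop2, a ribosomal RNA methyltransferase, between 0 and 8.43 (median 0) and between 11.9 and 81.5 (median 22.7). Their log2 fold changes were 5.59 ± 0.53, 3.68 ± 0.45 and 4.56 ± 0.57, and none overlapped between stages. Polr1c and Polr1d, subunits shared by RNA polymerases I and III, rose by 4.67 ± 0.53 and 1.56 ± 0.33 (adjusted p = 2.49e-12 and 3.3e-05). The atypical kinase Riok1 lay between 197 and 1646 (median 799) and between 7.07 and 48.5 (median 20) and fell by a log2 fold change of -5.37 without overlap, the GTPase Gnl2 changed by -4.07 ± 0.55, and Npm1, nucleophosmin, followed the bulk (-1.30, TMM 0.05, adjusted p = 0.884). The share of counts in the 45S ribosomal RNA locus Rn45s, whose reads do not come from mRNA, was 0.196 to 2.47% in oocytes (median 0.493%) and 1.12 to 3.61% in embryos (median 1.95%), and its part in these results was not tested.

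**Figure D4:**
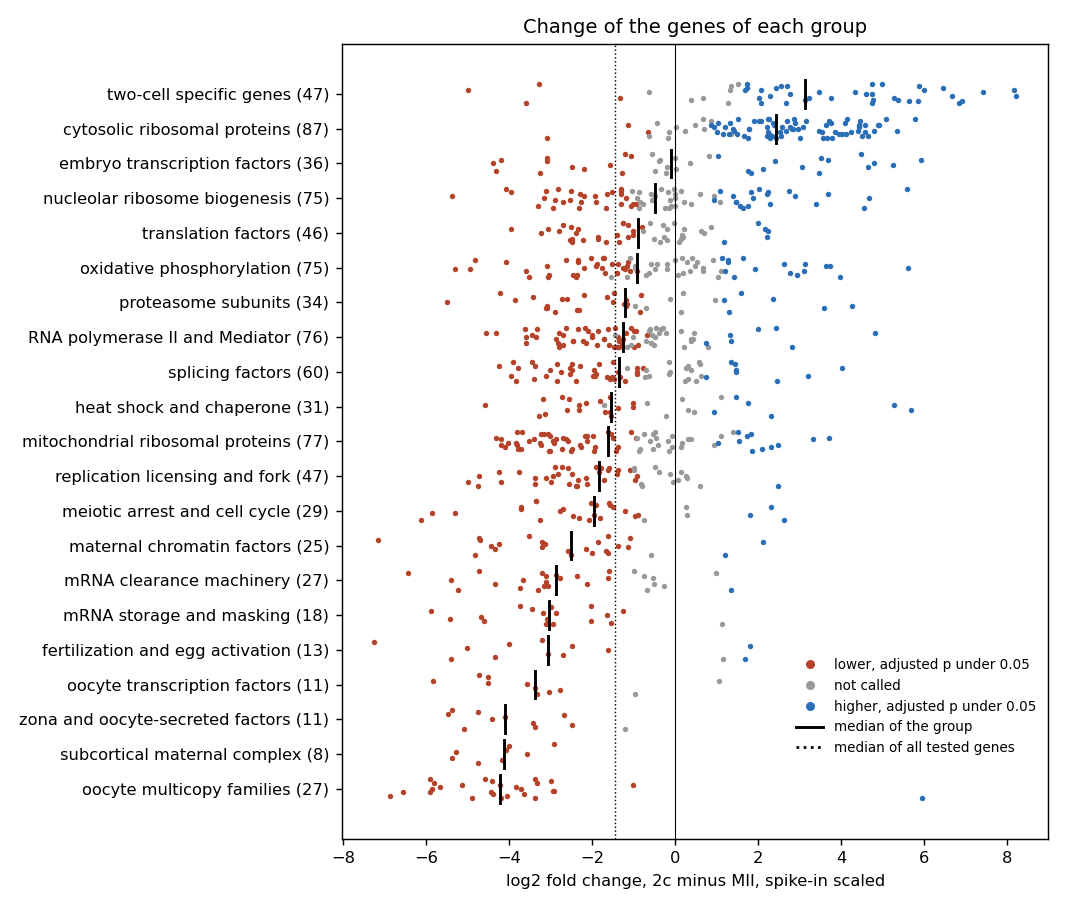
For each gene group the spike-in scaled log2 fold changes (2c minus MII) of its tested members are drawn as points, coloured by call, with a bar at the group median and a dotted line at the median of all 16511 genes (-1.46). The subcortical complex (median -4.13) and the multicopy families (-4.23) lie lowest on the spike-in scale, and the 2-cell list (3.13) and the ribosomal proteins (2.42) lie highest.

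The lists of housekeeping complexes that follow are to be read against all genes tested, of which 51.3% were lower and 14.1% higher on the spike-in scale and 23.1% lower and 27.5% higher by TMM. Of 60 splicing factor genes, 36 were lower and 8 higher on the spike-in scale (17 and 26 by TMM, medians -1.35 and 0.22). Core Sm proteins pointed both ways, Snrpd2 rising by 4.02 ± 0.48 without overlap, Snrpd3 and Snrpd1 changing by -3.95 ± 0.44 and -2.52 ± 0.30, and Snrpg following the bulk (-1.33, TMM 0.03). Srsf1, an SR protein, rose by 3.19 ± 0.57 and the heterogeneous nuclear ribonucleoprotein gene Hnrnpc changed by -2.29 ± 0.28. Of 34 proteasome subunit genes, 22 were lower and 6 higher (11 and 13 by TMM, medians -1.21 and 0.41). Psma7, a structural subunit of the core particle, lay between 48.4 and 1189 (median 515) in oocytes and between 4.61 and 30.2 (median 16.7) in embryos without overlap (-5.49 ± 0.43, adjusted p = 6.51e-20), and Psmd4, a ubiquitin receptor, and Psma2 changed by -3.08 ± 0.34 and -2.61 ± 0.32. The catalytic subunit Psmb5 lay between 0 and 7.59 (median 0.465) and between 7.07 and 56.7 (median 30.7) (4.25 ± 0.50, adjusted p = 9.59e-12), and Psmb1 rose by 2.36 ± 0.45.

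Of 75 oxidative phosphorylation genes, 33 were lower and 16 higher on the spike-in scale (11 and 33 by TMM, medians -0.93 and 0.71). Atp5j and Atp5g1 encode subunits of ATP synthase. Atp5j lay between 0 and 5.00 (median 0) in oocytes and between 14.1 and 73.1 (median 50.2) in embryos without overlap (5.60 ± 0.46, adjusted p = 1.79e-18), and Atp5g1 lay between 0 and 60.7 (median 3.75) and between 43.4 and 296 (median 192) with overlap (3.72 ± 0.43). The complex I genes Ndufa2 and Ndufa10 moved apart, by 3.63 ± 0.41 and -4.94 ± 0.42, each without overlap. Uqcrc2 of complex III changed by -4.83 ± 0.46, Cox8a of complex IV by -1.20 ± 0.23 (TMM 0.08), and Cox7a2 did not pass in amount (0.35, adjusted p = 0.276).

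Of 46 translation factor genes, 24 were lower and 5 higher on the spike-in scale (9 and 24 by TMM, medians -0.90 and 0.73). Eif2b1, of the exchange factor eIF2B, lay between 232 and 1391 (median 320.2) in oocytes and between 12.3 and 46.4 (median 26.4) in embryos without overlap (-3.95 ± 0.36, adjusted p = 1.78e-16), while Eif3g rose by 2.25 ± 0.55. Eif2s2, Eif4a1 and Eef1a1 changed by -2.47 ± 0.28, -2.71 ± 0.38 and -1.13 ± 0.36 in amount. Of 47 replication genes, 33 were lower and 1 higher on the spike-in scale (15 and 11 by TMM, medians -1.85 and -0.31). The one that rose was Rpa2, a subunit of the single-strand binding protein RPA, between 1.09 and 39.7 (median 10.2) in oocytes and between 25.2 and 128 (median 74.1) in embryos (2.48 ± 0.37, adjusted p = 1.17e-08). Rfc3, of the clamp loader, and Lig1, DNA ligase I, changed by -4.99 ± 0.58 and -4.74 ± 0.55, Orc6 by -1.71 ± 0.28, and Gmnn (geminin) did not pass in amount (0.15, adjusted p = 0.683).

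Of 76 genes of RNA polymerase II, its general factors and Mediator, 45 were lower and 7 higher on the spike-in scale (14 and 26 by TMM, medians -1.26 and 0.44). The polymerase subunit Polr2l lay between 3.34 and 98.3 (median 23.6) in oocytes and between 113 and 260.1 (median 173) in embryos without overlap (2.42 ± 0.31, adjusted p = 1.58e-10). The Mediator gene Med29 lay between 0 and 24.4 (median 2.87) and between 57.1 and 348 (median 135) without overlap (4.80 ± 0.55, adjusted p = 2.42e-12), Med21 rose by 2.01 ± 0.37 and Med27 changed by -2.71 ± 0.32. Gtf2b, the general factor TFIIB, changed by -4.57 ± 0.45 without overlap, Taf7 by -2.47 ± 0.32 and Tbp, the TATA-binding protein, by -2.88 ± 0.56 (TMM -0.93, adjusted p = 0.0456).

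Of 31 heat shock and chaperone genes, 18 were lower and 6 higher on the spike-in scale (9 and 12 by TMM, medians -1.55 and 0.11, against 51.3% and 14.1% of all genes on the spike-in scale). Beside the cleared Hsp90aa1, the constitutive Hsp90ab1 followed the bulk (-1.70, TMM -0.17, adjusted p = 0.574). The co-chaperone Bag3 lay between 0 and 3.33 (median 0) in oocytes and between 5.64 and 73.1 (median 23.3) in embryos without overlap (5.68 ± 0.64, adjusted p = 1.28e-12). Hspa1a, the inducible HSP70 gene of the 2-cell burst, had 3 counts over the oocytes and 14 over the embryos, a ratio of 7.21 (95% counting interval 2.01 to 39.1). Subunits of the CCT chaperonin parted, Cct6a at 5.28 ± 0.45 and Cct4 at 1.47 ± 0.43 against Cct8 at -2.57 ± 0.36. Stip1 rested on the A5 oocyte (1357 against at most 335 in the others), with a log2 fold change of -1.02 (adjusted p = 0.0429) that became -0.25 without it (adjusted p = 0.607).

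By size, the largest rises belonged to Gm12789, Gm4850, Bex6, B020004C17Rik and Gm16381. Bex6 had 0 counts in the 16 oocytes and lay between 26.3 and 119 (median 54.5) in embryos, at least 352-fold higher if the oocytes together are taken to hold 3 counts. Gm12789 had 1 count over the oocytes and between 73.7 and 164 (median 104) in embryos, a ratio of 1805 (95% counting interval 323 to 71347). The ratio of Gm4850 was 1150 (318 to 9502) and that of B020004C17Rik was 818 (226 to 6765). None of the 4 genes, which were selected for their rise, overlapped between stages. Genes with 0 counts in the 16 oocytes and counts in at least 6 of the 11 embryos numbered 219, of which 37 were counted in each of the 11 embryos, with lower bounds from 3.09-fold to 352-fold. Besides Bex6 these included Mmp19, a matrix metalloproteinase (at least 186-fold higher in embryos), Rfpl4b, a relative of the cleared Rfpl4 (at least 123-fold), Slc1a5, a glutamine transporter (at least 75.7-fold), Mast1, a kinase gene (at least 80.9-fold), Parp10, a mono-ADP-ribosyltransferase (at least 68.5-fold), and Hexim1, an inhibitor of the elongation factor P-TEFb (at least 43.8-fold). In the opposite direction 2 genes were counted in each of the 16 oocytes and in none of the 11 embryos, Crym, a thyroid hormone-binding crystallin (at least 23.1-fold higher in oocytes), and Poli, DNA polymerase iota (at least 45.1-fold).

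Markers of other cells that could cling to an oocyte or embryo were low at both stages. The summed CPM of 19 cumulus and granulosa markers was 7.49 to 77.7 in oocytes and 20.6 to 109 in embryos, and Foxl2, Amh, Fst, Ptx3, Hsd17b1, Areg and Vcan had 0 counts in the 27 libraries. Of 10 markers tested, 4 were lower and 1 higher on the spike-in scale (2 and 2 by TMM). Cyp19a1, aromatase, was at 17.4 ± 11.4 CPM (SD) in oocytes and 2.29 ± 3.35 in embryos. The marker that rose was Amhr2, the anti-Müllerian hormone receptor, with 0 counts in oocytes and 40.1 ± 27.7 CPM (SD) in embryos, present in each of the 11. The 10 sperm markers summed to 8.49 to 111 CPM in oocytes and 0 to 92.6 in embryos, with Prm1, Tnp2, Smcp and Spem1 at 0 (of 4 tested, 2 lower and 1 higher under either scaling). The 9 blood and immune markers reached 485 CPM in 1 oocyte and 78.4 in embryos, with Hbb-b1, Hbb-b2 and Ptprc at 0 (of 5 tested, 0 lower and 2 higher on the spike-in scale). The 7 oviduct markers reached 3.74 and 6.81 CPM (of 3 tested, Ovgp1 was higher by TMM at 2.51, adjusted p = 0.00498, and the spike-in scaled changes, between -0.57 and 1.46, did not pass).

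The WT course can be set beside later and mutant libraries. Mean levels in the 15 WT 8-cell (8c) embryos, given as values only because the same 2c libraries would enter both steps, were 30.6 ± 44.1 CPM (SD) for H1foo, 10.2 ± 10.1 for Rfpl4 and 15.7 ± 13 for Btg4, against 124 ± 46.7, 216 ± 115 and 879.5 ± 482 at 2c. Zfp352, Oog1 and Tmem92 stood at 0.749 ± 1.65, 54 ± 47.2 and 92.5 ± 54 CPM at 8c against 267 ± 225, 3004 ± 1429 and 1778 ± 450.2 at 2c, whereas Mt1 and Rps26 stood at 4985 ± 1864 and 4789 ± 1371 against 2315 ± 775 and 2074 ± 742. Hsp90aa1 was at 5202 ± 2624 in oocytes, 589 ± 178 at 2c and 3624 ± 1204 at 8c. The kept libraries of Plag1 knockout (KO) females were 14 oocytes, from unmated females, and 11 2c embryos, from females mated with WT studs. In these libraries each of the 14 cleared and 15 activated genes named by abundance changed in the same direction past the threshold by TMM. On the spike-in scale Rpl23a did not pass in the KO libraries (0.37, adjusted p = 0.551), and the other 28 genes did. Of the 3814 genes lower under both scalings in WT, 3588 were also lower in KO on the spike-in scale. Of the 2326 genes higher under both scalings in WT, 1512 were also higher in KO on that scale. Among cytosolic ribosomal protein genes 48 were higher and 9 lower in KO on that scale, against 73 and 3 in WT. A test of the difference in stage change between the genotypes, with TMM scaling, called 546 of 16511 genes (3.31%), of which 268 had a higher and 278 a lower log2 fold change in the knockout series.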

How the data were processed

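Single MII oocytes and embryos were lysed without RNA extraction, and the authors sequenced the 5′ ends of oligo(dT)-primed transcripts with molecular identifiers and diluted ERCC spike-in RNA. Molecular identifiers were joined, reads were aligned with TopHat to mm9 and counted per gene with HOMER by the authors, with versions not given in the sources used here. The deposited table holds raw, unnormalized counts for 90 libraries, with 24422 rows for genes and 92 for spike-in RNAs. The labels give the stage, genotype, plate and well of every column.

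A library was dropped when its median CPM fell below 1, which removed 12 of 90, and a gene was tested when 5 or more of the 78 remaining libraries had 1 CPM or more of it. The 6 groups of stage and genotype were fitted together with edgeR 4.0.16 (R 4.3.3, quasi-likelihood test, Benjamini-Hochberg adjusted p under 0.05), with the spike-in total as library size or with TMM factors as the second view. Counting intervals (95%) and the floor of 3 counts over a group cover counting error only. Single values per library were compared by two-sided permutation tests (100000 resamples, or exact within plates).

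Named genes were the 15 with the highest mean CPM in oocytes among genes lower under both scalings, with the same sign in both plates and a spike-in scaled log2 fold change of -4 or less, the 15 with the highest mean CPM in 2c embryos among those higher in the same way with 3 or more, the 5 lowest and 5 highest log2 fold changes with at least 50 CPM in the higher stage, and the 3 most abundant tested members of each of 25 lists; 2 of these genes are not reported here. Other list members and the genes present at 1 stage alone were chosen after their values were seen. The stage comparison, the gene lists and the tests were chosen with earlier results of these data known. Promoter windows ran from 250 bases before to 50 after the annotated start in mm9 (NCBIM37), chromosome 18 left out. The fit was also run on simulated counts drawn without differences between plates or females and without outlying oocytes, so that run does not cover such effects. Alternatives covered the filter, the test (likelihood ratio, DESeq2 1.42.0), the scaling, the libraries and groups in the fit, a plate term, separate plates, the threshold and, added after seeing the data, the fit without the oocyte in well A5 of plate A and, for the test of the genotypes, spike-in scaling, the fit without both A5 oocytes and the fit with each oocyte or 2c embryo left out in turn.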

Additional observations from a re-analysis of the deposited data

Results flagged for a closer look

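The stage change of 11 named genes differed between WT libraries and those of Plag1 KO females in edgeR's test of the interaction with TMM scaling (adjusted p under 0.05, 546 of 16511 genes called). With each of the 52 oocytes and embryos of both genotypes left out in turn, 382 to 725 genes were called, and a single library ended the call for 6 of the 11 genes. The values below are the KO minus the WT log2 fold change with its SE, and mean CPM ± SD over 16 and 14 oocytes and 11 and 11 embryos. The deepest contrast was C920025E04Rik, at 53 ± 49.1 CPM in WT oocytes and 0 in WT embryos, against 0 in KO oocytes and 22.9 ± 25.9 in KO embryos (interaction 14.0 by the fit, which has no finite bound for a group at 0, adjusted p = 1.03e-08). Nos1ap fell from 51.4 ± 84.5 to 0.529 ± 1.75 CPM in WT and was at 32.5 ± 21 and 14 ± 15.1 in KO (interaction 5.06 ± 1.25, adjusted p = 0.0109), and without the WT embryo in well D5 of plate A, the one WT embryo with a count, the interaction was 6.57 by the fit, with no finite bound (adjusted p = 0.0116). Fam90a1a was at 206 ± 87.3 and 14.5 ± 14.9 in KO against 277 ± 96.1 and 4.10 ± 8.47 in WT (interaction 2.31 ± 0.67, adjusted p = 0.0357). The Fam90a1a call was lost when any 1 of 9 embryos was left out, 6 WT and 3 KO (interaction from 1.86 to 3.16 with each library left out).

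Rpl23a was at 27.4 ± 24.7 CPM in WT and 113 ± 340.0 in KO oocytes (medians 20.9 and 19.7) and at 1361 ± 512 and 654 ± 461 in embryos (interaction -3.07 ± 0.67, adjusted p = 0.00322). The KO mean came from 1 oocyte at 1294 CPM, in well B7 of plate A, and without it the interaction was -0.68 (adjusted p = 0.449). Cdk1 was at 28.3 ± 50.4 and 71.5 ± 157 in oocytes and at 510.4 ± 171 and 237 ± 187 in embryos (interaction -2.34 ± 0.69, adjusted p = 0.0387). Without the KO oocyte at 609 CPM, in well B8 of plate A, it was -1.10 (adjusted p = 0.348), and the call was also lost when any 1 of 8 embryos was left out. Padi6 was at 1246 ± 692 in WT and 3736 ± 4271 in KO oocytes and at 108 ± 36.9 and 93.9 ± 60.9 in embryos (interaction -1.74 ± 0.48, adjusted p = 0.0262), and without the KO oocyte at 16705 CPM, in well B5 of plate A, the interaction was -1.32 (adjusted p = 0.0836). Atp5g1 was at 19.6 ± 20 and 35 ± 25.4 in oocytes and at 968 ± 402 and 514 ± 243 in embryos (interaction -1.58 ± 0.47, adjusted p = 0.0405), a call lost when any 1 of 13 libraries was left out. Stip1 was at 245 ± 165 and 349 ± 197 in oocytes and at 441 ± 347 and 221 ± 129.7 in embryos (interaction -1.46 ± 0.45, adjusted p = 0.0462), a call lost when any 1 of 22 libraries was left out.

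The calls of 5 genes, C920025E04Rik, Nos1ap, Chchd2, Rpa2 and Bex6, were kept with each library left out. Chchd2 was at 52.1 ± 40.1 CPM in WT and 66.8 ± 46.7 in KO oocytes and at 1527 ± 426 and 639 ± 388 in embryos (interaction -1.59 ± 0.40, adjusted p = 0.0139). Rpa2 was at 24 ± 11.6 and 37.4 ± 42.6 in oocytes and at 364 ± 144 and 133 ± 61.8 in embryos (interaction -2.05 ± 0.43, adjusted p = 0.00214), and without the KO oocyte at 178 CPM, in well B2 of plate A, the interaction was -1.56 (adjusted p = 0.012). Bex6 was at 344 ± 170.2 in WT and 127 ± 93.8 in KO embryos, with 0 counts over the WT and 9 over the KO oocytes, so that its interaction has no finite bound (-3.38 by the fit, adjusted p = 0.00384).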

How the results depend on the processing

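Direction and side of the threshold held for most values under the alternatives, and the plates were the main exception. On the spike-in scale 4543 genes were lower in plate B alone (8474 over both plates) and 1140 were higher in plate A alone (2326). By TMM 2294 genes were lower in plate A alone and 2327 in plate B alone (3814), and 2747 were higher in plate A alone (4540); each plate holds fewer libraries. The test of the difference between genotypes called 312 genes when scaled to the spike-in RNA and 546 by TMM, 561 without the A5 oocyte of each plate and 382 to 725 with each library left out in turn. The sign changed in plate B alone for D5Ertd577e (1.18 on the spike-in scale, 1.88 by TMM), Bub1b (0.63 by TMM) and Mrpl17 (0.60 by TMM), and in plate A alone for Dux (-1.48 by TMM), and the cause was not tested. Without the oocyte in well A5 the spike-in scaled changes of Foxo3, Gapdhs, Stip1, Gdf9, Crxos, Mt2 and Rps26 were -1.49, -3.33, -0.25, -4.73, 6.83, 7.25 and 5.95. No paired analysis was possible because the labels give each library its own well and no well of a plate holds both stages. With 148473 counts in the median 2c embryo, genes with a few counts, such as Nanog and Dux, cannot be followed with precision.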

Other observations

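A small set of 69 genes was lower in amount and higher in share at 2c, and it lay between the cleared and activated genes. Serf2, a small protein that modifies aggregation, had a spike-in scaled log2 fold change of -0.78 (adjusted p = 0.00463) and a TMM change of 0.64 (adjusted p = 0.00977), at 2629 ± 1062 CPM (SD) in oocytes and 3876 ± 1151 in embryos. The p53 inhibitor Mdm4 (-0.87 and 0.56), the cap-binding translation factor Eif4e (-1.01 and 0.59) and the apoptosis gene Siva1 (-0.66 and 0.78) were of the same kind. These genes were chosen from the 69 by their level after the values were seen.

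Transcript structure differed little between cleared genes and all tested genes. Over the genes matched to an annotated coding transcript, the median length was 2997 bases for cleared genes, 2387 for activated genes and 2923 for all genes, and the median 3′ UTR was 1009, 751.5 and 974 bases. Over the list of cytosolic ribosomal protein genes, of which 73 of 87 were higher under both scalings, they were 857.5 and 90 bases. The values are descriptions over genes and were not tested.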
